A study of Mus musculus with 10 samples.

Results

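Peroxisomes are single-membrane organelles that shorten very long-chain, branched and bile acid side chains by beta-oxidation, remove the hydrogen peroxide this makes, and start the synthesis of ether lipids. The 37 genes described here, a list of peroxisome biogenesis factors and peroxisomal enzymes and transporters, were taken by symbol from the 17359 genes of a liver expression table. They comprise 13 biogenesis factors (Pex genes), which build the organelle, and 24 enzymes and transporters, which do its chemistry. All 37 were in the table, and all 37 were among the 12789 genes that passed the filter on low counts.

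The livers came from mice on a high-fat diet, the only diet of all groups. A weekly cycle cut calories by 50% on day 1, by 70% on days 2 and 3 and by 50% on day 4, and let the mice eat freely from day 5 to day 7. Control mice ate the same diet ad libitum (n = 3). Cycled mice were sampled on day 3, the restricted group (n = 4), or on day 7, the refed group (n = 3). Neither the strain, genotype, age or sex of the mice nor the hour of collection is given in the sources used here, and the labels do not say which libraries came from separate mice, so the spread between libraries may be partly technical. In bulk liver RNA, fewer cells of a type and less RNA per cell cannot be told apart.

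Biogenesis factors work in sequence. Pex5 and Pex7 are soluble receptors that bind enzymes in the cytosol, Pex13 and Pex14 dock them at the membrane, Pex2 and Pex10 are ubiquitin ligases that mark the receptor for recycling, and the ATPase Pex6, anchored by Pex26, pulls it out. Pex3, Pex16 and Pex19 insert membrane proteins, and Pex11 proteins shape and divide the organelle. In mouse liver many of the enzyme genes are targets of PPARA, a nuclear receptor activated by fatty acids, which is also known to act during fasting.

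The 10 libraries held 13871533 to 15899479 expected counts. The restricted libraries lay at 27.1 to 44.5 on the first principal component (41.6% of the variance), the ad libitum libraries at −37.5 to −11.1 and the refed libraries at −25.1 to −16.1. Scaling matters for every comparison with the restricted group. The scaling by trimmed mean of M values (TMM) used below gave factors of 1.06 to 1.18 in restricted, 0.827 to 0.952 in ad libitum and 0.964 to 0.970 in refed libraries. Scaled by totals alone, all genes together had a median log2 difference of 0.36 between restricted and ad libitum libraries, against 0.05 with TMM. CPM are the counts divided by the library total times its TMM factor, and multiplied by the same constant in every library. Their sums over all genes therefore differ between libraries. Summed hepatocyte markers were at 75330 to 86150 CPM in restricted, 106900 to 129500 in ad libitum and 100900 to 108500 in refed libraries. Alb alone averaged 36730 CPM in restricted and 58880 CPM in ad libitum libraries and is a large part of these sums. Of the hepatocyte markers, 10 of 14 were called lower in restricted than in ad libitum libraries, where 15.6% of all genes were. Summed sinusoidal endothelium markers were at 425 to 456 CPM in restricted, 288 to 307 in ad libitum and 381 to 458 in refed libraries. Of them, 6 of 14 were called higher in restricted libraries, where 16.0% of all genes were. Stellate cell markers summed to 266 to 347 CPM in restricted, 333 to 352 in ad libitum and 397 to 453 in refed libraries. Sums of Kupffer cell (144 to 280 CPM), cholangiocyte (57.4 to 127) and lymphocyte markers (12.3 to 20.9) overlapped between ad libitum and restricted libraries. By gene, 3 of 14 Kupffer cell markers were lower in restricted libraries and 0 higher, where 15.6% of all genes were lower. Their median log2 fold change was −0.48. Of tested cholangiocyte markers 1 of 6 was higher, and of lymphocyte markers 1 of 7 was lower. Both are near the shares of all genes, 16.0% higher and 15.6% lower. None of these markers was at 0 in all libraries of a group. All marker values carry TMM factors, and markers were not examined with library totals alone. The part of these marker levels in the results below was not tested.

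Upstream sequences of 4 members are shown because they stand for the patterns that follow. Cat and Nudt7 fell under restriction and rose on refeeding, and Pex6 and Pex11a fell on refeeding. Each is the 250 bases before a RefSeq start in GRCm38.p6, read 5′ to 3′ on the gene's strand. That build differs from the GRCm39 named for the expression table, so no position was carried between them. The windows are chr2:103485154-103485403 (minus strand) for Cat, chr8:114133324-114133573 (plus) for Nudt7, chr17:46711226-46711475 (plus) for Pex6 and chr7:79743132-79743381 (minus) for Pex11a. Nudt7 has a further, overlapping RefSeq window, chr8:114133368-114133617 (plus), which is not shown. Capitals mark a match to the direct repeat bound by PPARA with its partner, spelled AGGTCA, any base, AGGTCA.
Cat: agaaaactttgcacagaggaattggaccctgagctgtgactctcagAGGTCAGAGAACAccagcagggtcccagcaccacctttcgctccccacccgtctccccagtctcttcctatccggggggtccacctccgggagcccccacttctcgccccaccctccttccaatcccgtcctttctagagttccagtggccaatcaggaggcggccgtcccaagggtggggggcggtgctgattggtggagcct
Nudt7: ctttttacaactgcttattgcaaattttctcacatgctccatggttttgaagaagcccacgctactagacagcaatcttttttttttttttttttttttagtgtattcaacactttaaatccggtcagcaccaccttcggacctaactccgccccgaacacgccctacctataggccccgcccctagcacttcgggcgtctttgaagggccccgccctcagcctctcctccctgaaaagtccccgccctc
Pex6: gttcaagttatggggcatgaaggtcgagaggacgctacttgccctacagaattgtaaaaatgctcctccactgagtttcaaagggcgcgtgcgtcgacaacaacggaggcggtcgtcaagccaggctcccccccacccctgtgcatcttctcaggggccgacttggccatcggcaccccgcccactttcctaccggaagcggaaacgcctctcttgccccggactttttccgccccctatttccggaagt
Pex11a: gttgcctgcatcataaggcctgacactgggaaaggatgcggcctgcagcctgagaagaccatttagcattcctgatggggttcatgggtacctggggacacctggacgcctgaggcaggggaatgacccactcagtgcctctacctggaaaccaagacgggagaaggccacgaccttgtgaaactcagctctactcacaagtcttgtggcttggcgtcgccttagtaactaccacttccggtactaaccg
The repeat was searched on both strands of 300-base windows (250 before and 50 after the start) with up to 2 mismatches in its 12 fixed letters. Of 30 members with a RefSeq window, 2 held a match (6.67%), against 4.40% of 27025 genes with a window and 3.91% of the 13634 such genes in the expression table. With up to 1 mismatch, 0 of the 30 members held a match, against 0.64% of the 27025 genes. In Cat the match began 204 bases before the start, on the gene's own strand, with 2 mismatches. The other was in the Acox2 window chr14:8258840-8259089 (minus strand) and did not lie wholly before the start. The bases after that start matched no Acox2 transcript, and the Acox2 window that did match a transcript held no repeat. None of the 11 biogenesis factors with a window and 2 of the 19 enzymes and transporters held a match. A match of letters is not a binding site, and windows farther from the start were not searched.

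Levels of different genes were compared in deposited FPKM, which are scaled by transcript length and library size. The peroxisomal genes spanned from a mean of 1.33 FPKM for Far1 to 2694 FPKM for Acaa1b over the 10 libraries. The highest after Acaa1b, a thiolase of beta-oxidation, were Phyh (1962 FPKM), which starts the alpha-oxidation of phytanic acid, Scp2 (1749), a thiolase and lipid carrier, and Cat (966), catalase. Slc27a2, which activates very long-chain fatty acids, followed at 860 FPKM. The highest biogenesis factor was the division factor Pex11a at 175 FPKM, followed by Pex16 at 95.1, and Pex10 was the lowest at 3.43 FPKM. The ether lipid genes Agps (1.71 FPKM) and Far1 were the lowest of all. Summed over the 13 biogenesis factors, levels were 559 ± 4.88 FPKM ad libitum (SD, n = 3), 634 ± 34.9 restricted (n = 4) and 504 ± 3.45 refed (n = 3), and the groups did not overlap. FPKM carries no TMM factors, so this order holds on that scale alone. The higher sum in restricted than ad libitum libraries rests on Pex11a, at 161 FPKM ad libitum, 218 restricted and 133 refed, and on Pex6, at 36.2, 61.6 and 32.2 FPKM. The 3 membrane assembly factors summed to 144 to 155 FPKM ad libitum and 139 to 184 restricted, which overlapped. The 24 enzymes and transporters summed to 10960 to 12300 FPKM ad libitum, 9289 to 11280 restricted and 10820 to 11450 refed, and these ranges overlapped.

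**Figure D1:**
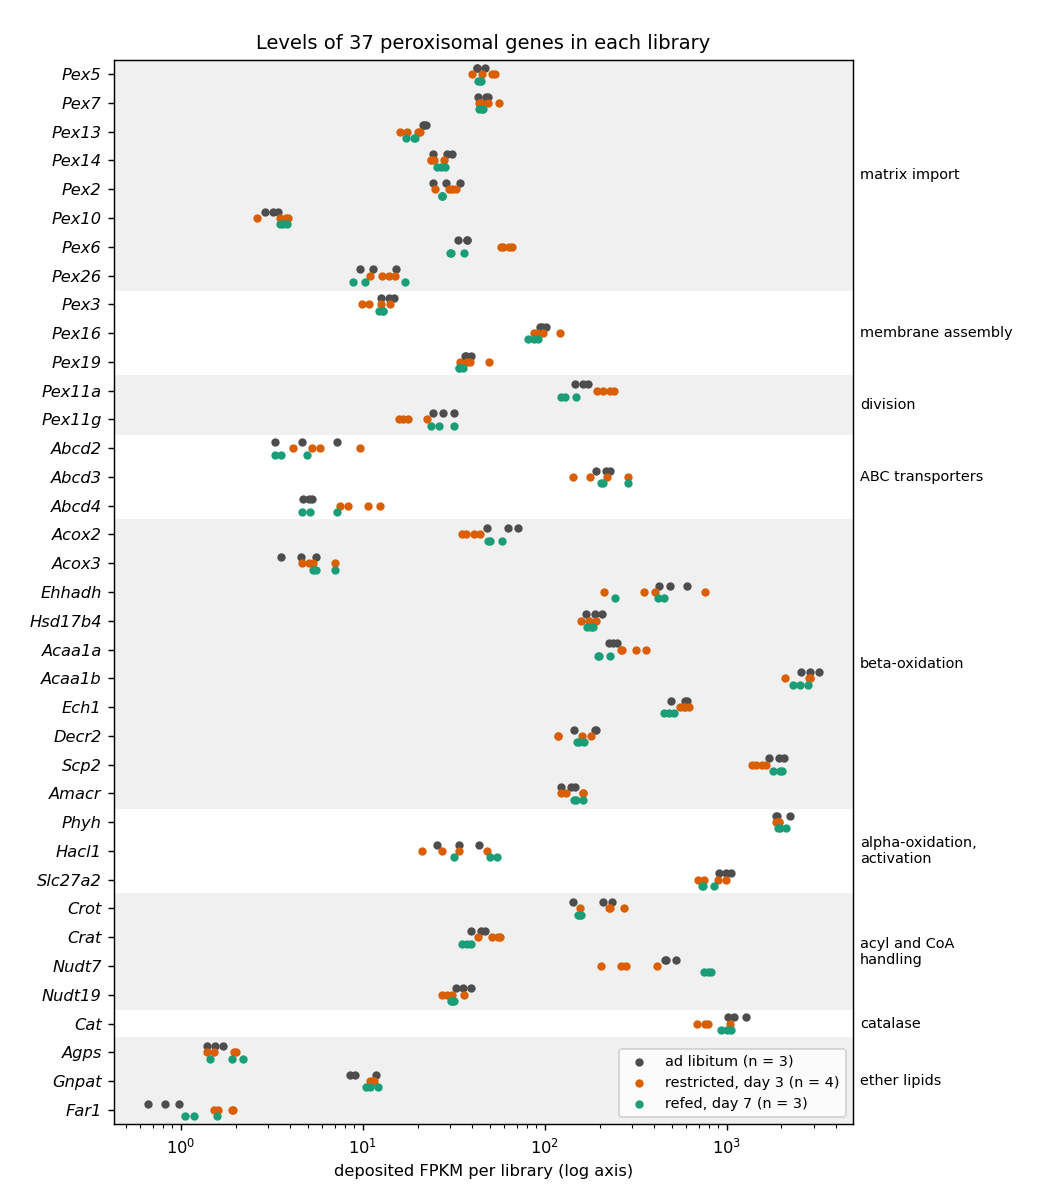
Deposited FPKM of 37 peroxisomal genes in each library (log axis), grouped by role, with grey points for ad libitum, orange for restricted and green for refed libraries. Enzymes from Acaa1b (mean 2694 FPKM) down to Far1 (1.33 FPKM) span a wider range than the biogenesis factors, of which Pex11a (175 FPKM) is the highest.

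The comparison of restricted with ad libitum livers asked how day 3 of restriction changed peroxisomal transcripts. Catalase, the sterol and branched-chain enzymes Acox2 and Scp2, the CoA hydrolase Nudt7 and the division factor Pex11g fell. Far1, Abcd4 and Pex6 rose. In all, 13 of the 37 genes were lower and 3 higher in edgeR's quasi-likelihood test at an adjusted p below 0.05 over all genes. Over all genes tested, 15.6% were called lower and 16.0% higher. The median log2 fold change of the 37 genes was −0.28, against 0.05 for all genes, and 0.04 against 0.36 when scaled by totals alone. That scaling called 5 of them lower (Pex11g, Acox2, Scp2, Nudt7 and Cat) and 4 higher (Pex11a, Pex6, Abcd4 and Far1), and 686 of all genes lower and 4395 higher. The change of scaling moves all genes by nearly the same amount, so the sign of the peroxisomal median depends on it.

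Both classes held falls and rises. Of the 13 biogenesis factors 4 fell and 1 rose, with a median of −0.27, and of the 24 enzymes and transporters 9 fell and 2 rose, with a median of −0.36. Scaled by totals alone, these medians became 0.05 and −0.04. The difference between the classes was not tested, since the members were chosen with results known. The beta-oxidation enzymes held the most falls, with 5 of 10 (median −0.44), where 15.6% of all genes fell. Scaled by totals alone, Acox2 and Scp2 kept their calls and Hsd17b4, Acaa1b and Decr2 lost theirs. Of the 4 carnitine acyltransferases and CoA hydrolases 2 fell, and of the 8 import factors 2 fell.

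**Figure D2:**
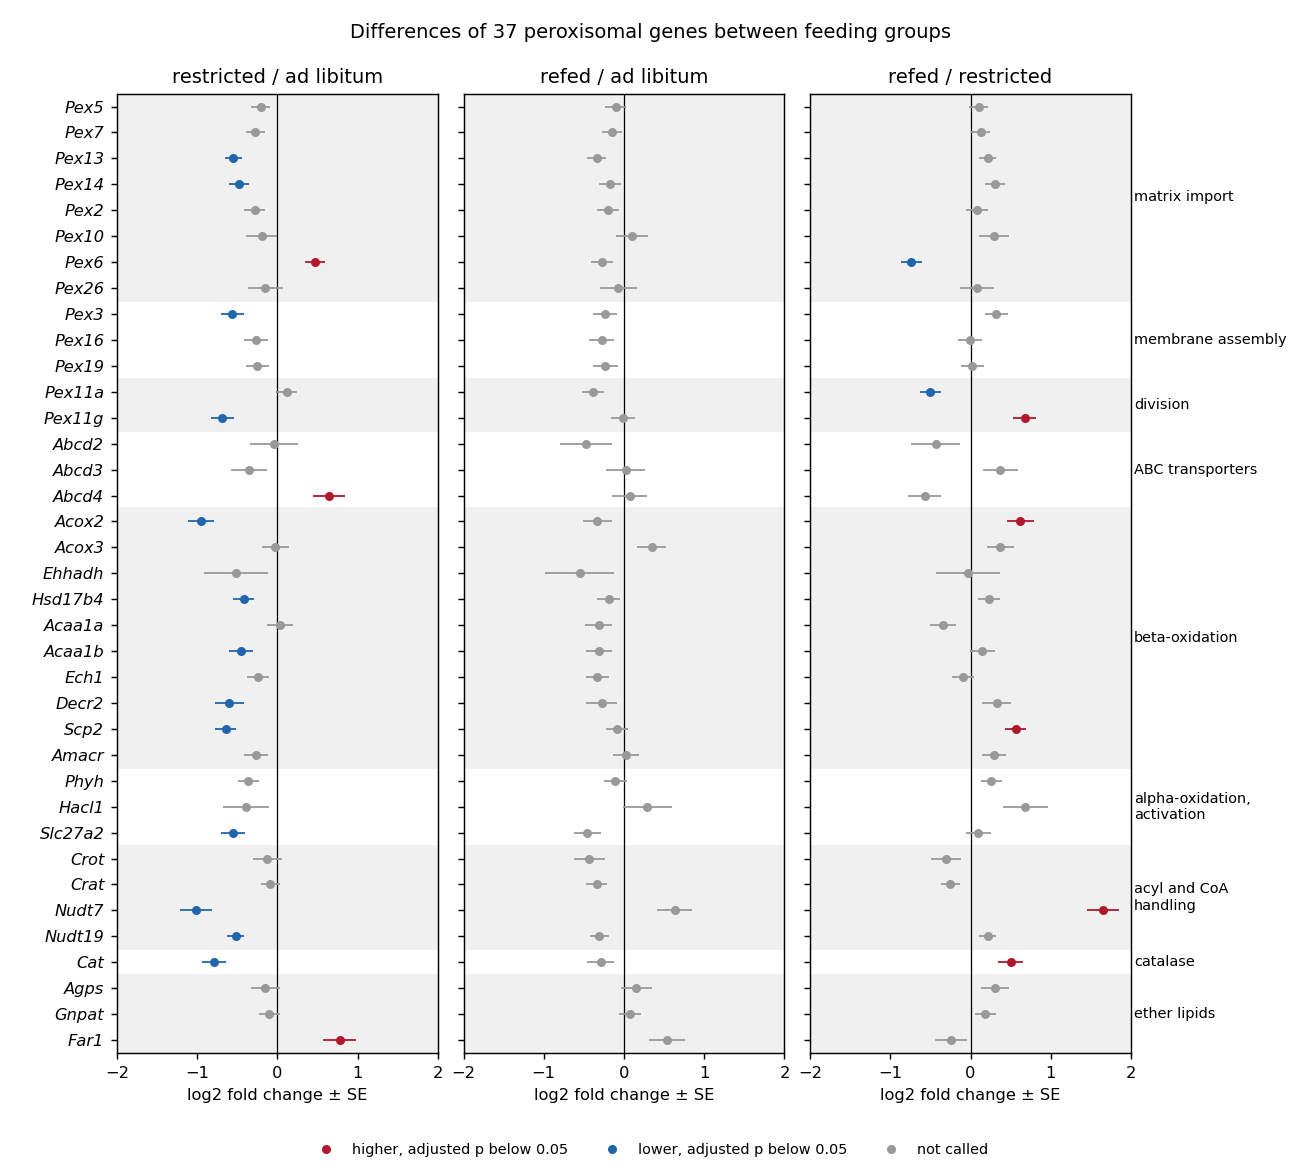
Log2 fold change ± SE of 37 peroxisomal genes in the comparisons restricted against ad libitum, refed against ad libitum and refed against restricted, with red for genes called higher, blue for genes called lower and grey for the rest. The left panel holds 13 lower and 3 higher genes, the middle panel none, and the right panel 5 higher and 2 lower.

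Among the import factors, the docking proteins fell. Pex13 (NCBI gene 72129) was at 70.7, 77.6 and 71.9 CPM in the ad libitum libraries, at 52.7, 45.7, 53.0 and 49.2 in the restricted and at 60.8, 59.9 and 53.6 in the refed libraries. Every restricted library was below every other library, and the log2 fold change was −0.55 (SE 0.11, adjusted p = 0.0028). Its docking partner Pex14 was at 44.4, 60.2 and 58.0 CPM ad libitum, 35.5, 38.5, 40.9 and 39.9 restricted and 48.0, 50.4 and 45.4 refed. That was again lower in every restricted library (−0.48, SE 0.13, adjusted p = 0.011). Pex6 (NCBI gene 224824), the extraction ATPase, went the other way. It was at 116, 118 and 121 CPM ad libitum, 152, 175, 144 and 182.5 restricted and 92.8, 91.9 and 109 refed. The 3 groups did not overlap, and Pex6 rose by 0.47 (SE 0.13, adjusted p = 0.014). Its anchor Pex26 was not called, at 38.9 to 54.3 CPM ad libitum and 32.7 to 44.3 restricted (−0.15, SE 0.22). The receptor Pex7, the most abundant import factor per length, was at 73.6, 95.8 and 85.0 CPM ad libitum, 69.0, 66.0, 76.9 and 67.8 restricted and 74.2, 77.9 and 77.1 refed, and these groups overlapped (−0.28, SE 0.12, adjusted p = 0.088). Pex5, Pex2 and Pex10 had values of −0.28 to −0.20 on the log2 scale, and none passed.

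Of the 3 membrane assembly factors, Pex3, the membrane anchor for Pex19, was called. It was at 25.9, 35.6 and 30.8 CPM ad libitum, 18.5, 23.3, 23.3 and 18.2 restricted and 26.2, 26.3 and 25.6 refed, lower in every restricted library (−0.56, SE 0.14, adjusted p = 0.0094). Pex16 was at 121, 141.5 and 135 CPM ad libitum and 97.4, 140.3, 90.0 and 112 restricted, so that restricted replicate 2 lay within the ad libitum range (−0.27, SE 0.15, adjusted p = 0.18). Pex19 was highest in the same library, at 126.5 CPM against 85.9 to 93.1 in the other restricted libraries (−0.25, SE 0.14, adjusted p = 0.20). Without restricted replicate 2, Pex16 (−0.41, adjusted p = 0.031) and Pex19 (−0.40, adjusted p = 0.026) were called lower. It was the highest restricted library for both genes, so leaving it out lowers the restricted mean by construction.

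Of the division factors, Pex11g was called. Pex11g (NCBI gene 69129) was at 51.9, 54.2 and 50.6 CPM ad libitum, 29.96, 41.5, 29.1 and 29.1 restricted and 59.2, 48.9 and 47.0 refed. All restricted libraries were the lowest, and the log2 fold change was −0.69 (SE 0.14, adjusted p = 0.0035), a 1.61-fold fall. Pex11a, whose upstream window is shown above, was at 357, 384 and 316 CPM ad libitum, 331, 417.5, 396 and 381 restricted and 249, 260.4 and 299 refed. Ad libitum and restricted libraries overlapped (0.12, SE 0.13, adjusted p = 0.53), and with library totals alone Pex11a was called higher (0.43, adjusted p = 0.016). The exons of Pex11g overlap a gene on the opposite strand over 41.1% of their length in GENCODE M21, and in Pex14 over 28.3%, and these unstranded libraries cannot tell such reads apart.

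The ABC transporters carry acyl chains into the peroxisome, except Abcd4, which is known from the lysosome. Abcd4 rose, from 12.2, 13.03 and 13.03 CPM ad libitum to 21.3, 17.9, 14.5 and 26.2 CPM restricted, with 10.95, 12.3 and 17.0 refed (0.64, SE 0.20, adjusted p = 0.027). The groups did not overlap between ad libitum and restricted. The call was lost without any 1 of the 3 ad libitum libraries or without restricted replicate 1 or 4 (adjusted p = 0.057 to 0.081). Abcd3, the most abundant of them, was at 642, 834 and 792 CPM ad libitum, 394, 855, 594 and 525 restricted and 690.3, 939 and 669.5 refed. Restricted replicate 2 was again above the rest of its group, and the difference did not pass (−0.35, SE 0.22, adjusted p = 0.25). It did without that library (−0.58, adjusted p = 0.032), where leaving out the highest value lowers the mean by construction. Abcd2 had a log2 fold change of −0.04 (SE 0.30).

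Several genes for the beta-oxidation of bile acid side chains and branched chains fell. Acox2 (NCBI gene 93732), the oxidase of these chains, was at 148, 192 and 118 CPM ad libitum, 72.2, 84.7, 66.8 and 91.8 restricted and 114, 115 and 135 refed. The restricted libraries were all below the others, a 1.94-fold fall (−0.95, SE 0.17, adjusted p = 0.0013). Hsd17b4, the multifunctional enzyme of the next steps, was at 432, 603 and 500.1 CPM ad libitum, 370, 404, 398 and 358 restricted and 465, 428 and 453 refed (−0.42, SE 0.13, adjusted p = 0.028). Scp2 (NCBI gene 20280), which holds the last thiolase step, was at 5223, 5613 and 4498 CPM ad libitum, 3043, 3550, 3354 and 3106 restricted and 5030, 4479 and 4928 refed. Its groups did not overlap between restricted and either other group (−0.65, SE 0.13, adjusted p = 0.0026), and 37.5% of its 50-base words occur in other genes. Amacr, the racemase that prepares these chains, was not called (−0.27, SE 0.15, adjusted p = 0.18), nor was Acox3, another oxidase of branched chains (−0.02, SE 0.17, adjusted p = 0.92). The call of Hsd17b4 was lost in 8 of 21 alternatives, among them without ad libitum replicate 3 (adjusted p = 0.17) and with library totals alone (−0.09, adjusted p = 0.56).

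The straight-chain enzymes were more mixed. Acaa1b was at 4206, 4469 and 3672 CPM ad libitum, 2295, 3334, 3007 and 3373 restricted and 3058, 3619 and 3298 refed (−0.46, SE 0.15, adjusted p = 0.035). Its close copy Acaa1a was at 356 to 426 CPM ad libitum and 336 to 502 restricted (0.03, SE 0.16, adjusted p = 0.89). In GENCODE M21 transcripts, 35.5% of the 50-base words of Acaa1b occur in other genes, chiefly Acaa1a, so the split of reads between the thiolases is uncertain. The Acaa1b call was lost in 10 of 21 alternatives (adjusted p = 0.056 to 0.51). Decr2, a reductase for unsaturated chains, was at 276, 417 and 371 CPM ad libitum, 186, 305, 245 and 199 restricted and 283, 288 and 306 refed, with restricted replicate 2 inside the ad libitum range (−0.60, SE 0.18, adjusted p = 0.022). Ehhadh, the bifunctional enzyme and a known PPARA target, had the largest SE of the 37 genes. It was at 1702, 1587 and 1246 CPM ad libitum, 497, 1917, 927 and 875 restricted and 678, 1161 and 1252 refed (−0.52, SE 0.40, adjusted p = 0.35). Without restricted replicate 2, its highest restricted library, Ehhadh was called lower (−0.98, adjusted p = 0.019), with the same limit as for Abcd3. Ech1 (−0.24) was not called.

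Among the 37 genes, restricted replicate 2 was the highest of the 4 restricted libraries for 16, against 4, 7 and 10 for replicates 1, 3 and 4. Without it 17 genes were called lower and 3 higher in the comparison with ad libitum livers. In that fit 1959 of all 12747 genes were called lower and 1958 higher. This library was singled out after its values were seen, so the added calls are not separate evidence of a fall.

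Of the alpha-oxidation and activation genes, Slc27a2 was called. It was at 2149, 2602 and 2020 CPM ad libitum, 1338, 1911, 1565 and 1335 restricted and 1575, 1551 and 1804 refed, lower in every restricted than in every ad libitum library (−0.55, SE 0.15, adjusted p = 0.016). Phyh lay just outside the threshold. It was at 2431, 3258 and 2476 CPM ad libitum, 2087, 2151, 2026 and 2194 restricted and 2426, 2491 and 2668 refed, and its restricted libraries were below all others (−0.36, SE 0.13, adjusted p = 0.051). DESeq2 called it lower (−0.39, adjusted p = 0.014). Hacl1, the lyase of alpha-oxidation, was not called (−0.39, SE 0.28, adjusted p = 0.32), and 51.9% of its 50-base words occur in other genes.

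The CoA hydrolases of the Nudix family fell. Nudt7 (NCBI gene 67528), which cleaves CoA inside peroxisomes, was at 553, 544 and 477 CPM ad libitum, 183, 378, 220 and 254.5 restricted and 897, 796 and 746 refed. The 3 groups did not overlap. From ad libitum to restricted livers it fell 2.03-fold (−1.02, SE 0.20, adjusted p = 0.0025), the largest fall of the 37. Nudt19 (NCBI gene 110959), a second peroxisomal hydrolase, was at 62.6, 65.1 and 71.9 CPM ad libitum, 45.3, 45.9, 51.2 and 42.9 restricted and 54.9, 53.3 and 52.9 refed, again with no overlap (−0.52, SE 0.11, adjusted p = 0.0036). Of the exons of Nudt19, 35.0% overlap an opposite-strand gene. The acyltransferases Crot (−0.13, SE 0.18) and Crat (−0.09, SE 0.12), which pass shortened chains to carnitine, were not called. Cat (NCBI gene 12359) was at 2456, 3523 and 2763 CPM ad libitum, 1578, 1641, 2037 and 1485 restricted and 2538, 2217 and 2387 refed. Every restricted library was below every other, and Cat fell 1.73-fold (−0.79, SE 0.15, adjusted p = 0.0025).

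No ether lipid gene was called lower. Far1 (NCBI gene 67420), the reductase that makes its fatty alcohol, was at 4.82, 4.60 and 3.38 CPM ad libitum, 6.22, 7.02, 7.65 and 8.29 restricted and 5.12, 5.66 and 7.69 refed. It was the lowest-expressed of the 37 per length, and rose by 0.77 (SE 0.21, adjusted p = 0.013). It lost that call without ad libitum replicate 4 (0.63, adjusted p = 0.071). Gnpat, which attaches the first acyl chain, was at 24.6, 30.04 and 35.1 CPM ad libitum, 27.3, 28.1, 26.7 and 29.2 restricted and 34.2, 31.0 and 29.4 refed. The ad libitum libraries overlapped both other groups (−0.11 in restricted against ad libitum, SE 0.13, adjusted p = 0.57). Agps, the enzyme that forms the ether bond, had a log2 fold change of −0.15 (SE 0.18).

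**Figure D3:**
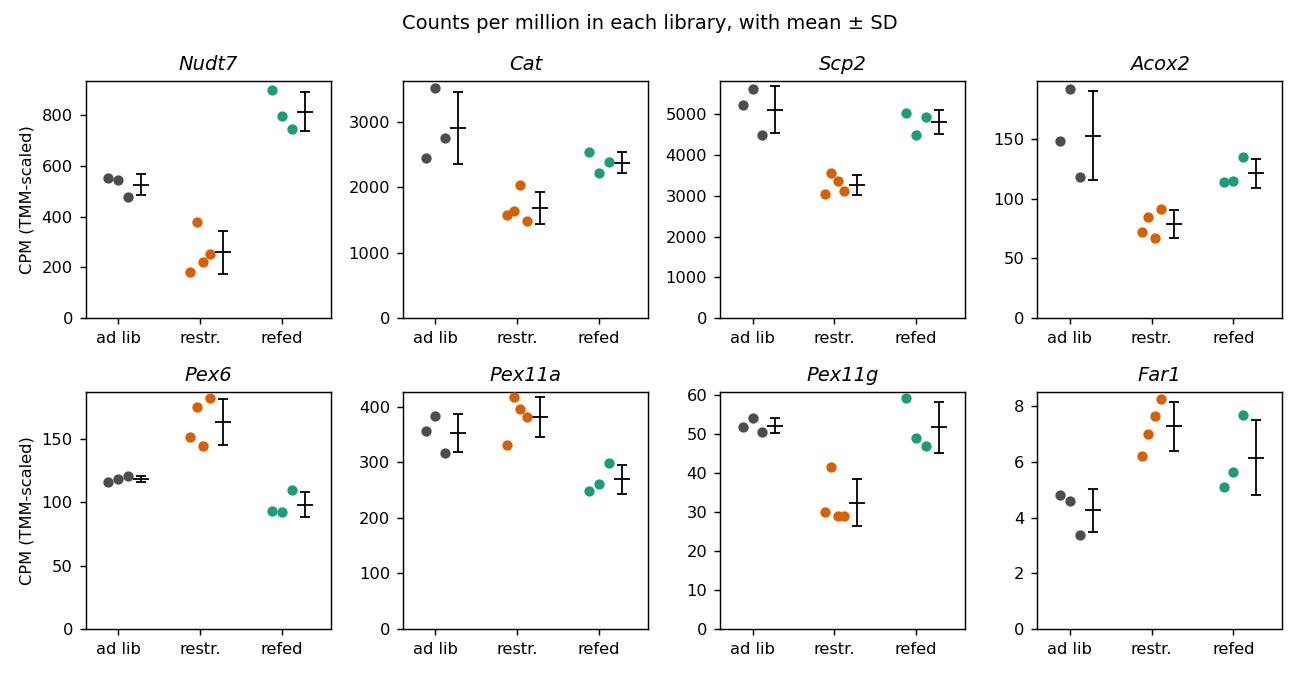
CPM with TMM factors of 8 peroxisomal genes in each library, with points for libraries and a bar for the mean ± SD of ad libitum (n = 3), restricted (n = 4) and refed (n = 3) groups. Nudt7 runs from 183 to 378 CPM restricted to 746 to 897 CPM refed, Cat, Scp2, Acox2 and Pex11g are lowest in the restricted libraries, and Pex6 and Pex11a are lowest in the refed libraries.

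Leaving out libraries or changing the scaling ended several of these calls. Without ad libitum replicate 3, calls were lost for Pex14, Pex6, Pex3, Abcd4, Hsd17b4, Acaa1b, Decr2 and Slc27a2 (adjusted p = 0.056 to 0.17), which left 7 genes lower and 1 higher. Without ad libitum replicate 4, Pex14, Abcd4, Hsd17b4, Decr2 and Far1 lost theirs (adjusted p = 0.051 to 0.071), and 1 gene was called higher. Scaled by totals alone, Pex13 (−0.23), Pex14 (−0.16), Pex3 (−0.24), Hsd17b4, Acaa1b (−0.14), Decr2 (−0.28), Slc27a2 (−0.24) and Nudt19 (−0.21) kept a negative sign and lost their calls (adjusted p = 0.15 to 0.56). Calls were also lost without ad libitum replicate 2 (Abcd4 and Acaa1b), restricted replicate 1 (Abcd4, Hsd17b4, Acaa1b and Decr2), restricted replicate 3 (Acaa1b) and restricted replicate 4 (Abcd4, Hsd17b4 and Decr2), at adjusted p of 0.057 to 0.093. Pex11g, Acox2, Scp2, Nudt7 and Cat were called lower in each of the 21 alternatives.

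**Figure D4:**
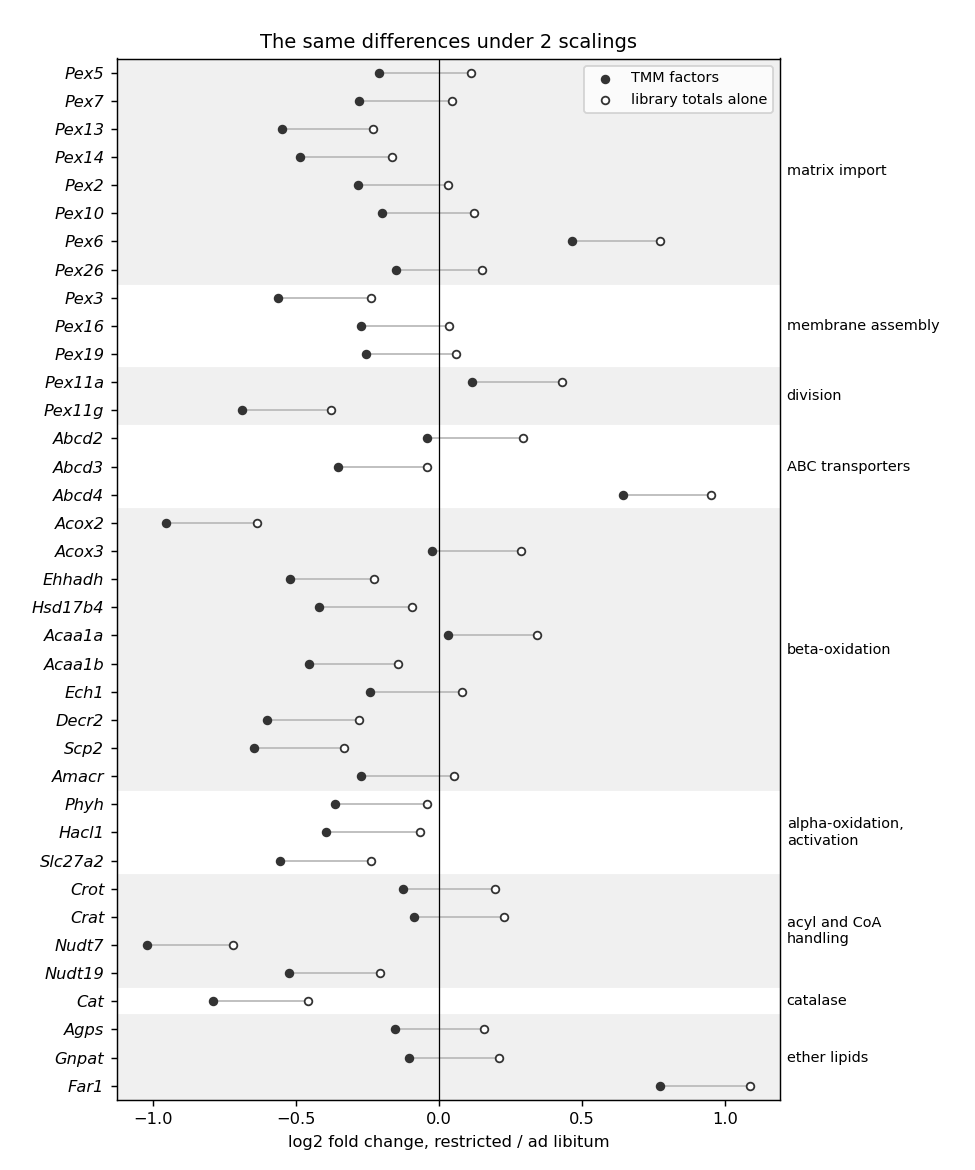
Log2 fold change of 37 peroxisomal genes in restricted against ad libitum livers with TMM factors (filled points) and with library totals alone (open points). All points move to the right with library totals, and the median of the 37 genes moves from −0.28 to 0.04 while that of all genes moves from 0.05 to 0.36.

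The comparison of refed with restricted livers asked what returned after feeding resumed. It shares the restricted libraries with the comparison above, so opposite signs in the pair are not independent. Nudt7, Pex11g, Acox2, Scp2 and Cat rose, and Pex6 and Pex11a fell. That is 5 of 37 higher, where 11.4% of all genes tested were called higher, and 2 lower, where 10.7% were called lower. The median of the 37 genes was 0.18, against −0.02 for all genes, and −0.02 against −0.22 when scaled by totals alone. That scaling called 4 higher and 5 lower of the 37, and 673 higher and 2724 lower of all genes.

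Enzymes and biogenesis factors are described apart. Of the 24 enzymes and transporters 4 rose and none fell (median 0.22), and of the 13 biogenesis factors 1 rose and 2 fell (median 0.10). Under the scaling by totals these medians were 0.01 and −0.11, and 3 enzymes or transporters were called lower, Abcd4, Acaa1a and Crat.

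Nudt7 had the largest difference of the 37, a 3.14-fold rise from the per-library values given above (1.65, SE 0.20, adjusted p = 0.00035). Every refed library was above every restricted library also for Pex11g (0.67, SE 0.14, adjusted p = 0.0062), Acox2 (0.62, SE 0.17, adjusted p = 0.018), Scp2 (0.56, SE 0.13, adjusted p = 0.0085) and Cat (0.50, SE 0.15, adjusted p = 0.034). Pex6 fell by 0.74 (SE 0.13, adjusted p = 0.0022), to below the ad libitum range in every refed library. Pex11a fell by 0.50 (SE 0.13, adjusted p = 0.017), with refed libraries at 249 to 299 CPM and restricted libraries at 331 to 417.5. Abcd4 lay just outside the threshold (−0.57, SE 0.20, adjusted p = 0.055). Pex13 (0.21, adjusted p = 0.18), Pex14 (0.31, adjusted p = 0.095), Pex3 (0.32, adjusted p = 0.12) and Nudt19 (0.21, adjusted p = 0.18) had refed libraries all above the restricted ones and did not pass.

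Pex6, Pex11g, Scp2 and Nudt7 were called in each of the 21 alternatives. The Cat call was lost in 9 of 21, among them without any 1 refed library and without restricted replicate 1, 2 or 4 (adjusted p = 0.061 to 0.12) and with library totals alone (0.29, adjusted p = 0.16). Pex11a lost its call without refed replicate 1 (adjusted p = 0.079) or 2 (0.077), and Acox2 without refed replicate 3 (0.078).

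The comparison of refed with ad libitum livers asked what differed after a full cycle. None of the 37 genes passed in edgeR's quasi-likelihood test, where 0.0156% of all genes were called higher and 0.0391% lower, and none passed in DESeq2 or limma voom. At an unadjusted p below 0.05 there were 9 of the 37, and 1381 of the 12789 genes tested. The median log2 fold change was −0.20 for the 37 genes, −0.20 for biogenesis factors and −0.23 for enzymes and transporters, against 0.01 for all genes. The same medians scaled by totals alone were −0.09, −0.09 and −0.11, against 0.12.

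Counted by groups that did not overlap in CPM, 2 of the 37 genes were higher in refed libraries, where 9.38% of all genes were, and 10 were lower, where 9.56% were. The higher genes were Nudt7 (0.63, SE 0.22, adjusted p = 0.33) and Far1 (0.53, SE 0.22, adjusted p = 0.42), with the values given above. The lower genes were the biogenesis factors Pex13 (−0.34), Pex6 (−0.27), Pex16 (−0.28), Pex19 (−0.23) and Pex11a (−0.39) and the enzyme genes Acaa1a (−0.31), Acaa1b (−0.31), Slc27a2 (−0.46), Crat (−0.34) and Nudt19 (−0.31), with adjusted p of 0.34 to 0.61. Pex16, for example, was at 109.9, 115 and 103 CPM refed and at 121 to 141.5 CPM ad libitum. Crat was at 108, 104 and 98.5 CPM refed and at 126.5 to 139 CPM ad libitum.

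Other peroxisomal genes were counted in the same fit from lists set by known function, with earlier results of these data in view. Of 42 further enzymes of the peroxisomal matrix tested, 14 fell and 1 rose in restricted against ad libitum livers (median −0.28), where 15.6% of all genes were called lower and 16.0% higher. In refed against restricted livers 9 rose and 2 fell (median 0.16), where 11.4% of all genes were called higher and 10.7% lower. No rise under restriction was called without ad libitum replicate 3 or 4 or restricted replicate 2 or 3. On refeeding 1 fell without refed replicate 2 or 3. Lactb2, a hydrolase also placed in mitochondria, was at 130 CPM on average ad libitum, 40.9 restricted and 136 refed (−1.66, adjusted p = 0.00016 under restriction, and 1.74, adjusted p = 0.00015 on refeeding). Gstk1, a glutathione transferase, fell by 1.34 (adjusted p = 0.00018) and rose by 0.98 (0.0016), and Pecr, the trans-2-enoyl-CoA reductase of chain elongation, fell by 1.08 (0.00040) and rose by 0.96 (0.0014). Idh1, which supplies NADPH, fell by 0.68 (0.0016). Tmlhe, of carnitine synthesis and known from mitochondria, fell by 1.13 (0.0017) and rose on refeeding by 1.10 (0.0034). It is counted among the 42, so not every gene of this list is confined to the peroxisome. The enzymes that fell on refeeding were the acyl-CoA thioesterases Acot3 (−1.44, adjusted p = 0.020) and Acot4 (−0.80, adjusted p = 0.0042), chosen after their values were seen. By library totals the counts of this list were 5 higher and 6 lower under restriction (median 0.02), and 7 higher and 6 lower on refeeding (median −0.04).

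Of 21 further genes of the peroxisomal membrane, division and turnover, 4 fell and none rose under restriction (median −0.20), where 15.6% of all genes were called lower. On refeeding 5 rose and none fell (median 0.15), where 11.4% of all genes were called higher. The count of falls was 2 without ad libitum replicate 3 or 4 or restricted replicate 1 or 4, 6 without ad libitum replicate 2 and 8 without restricted replicate 2. Vapb, which tethers peroxisomes to the endoplasmic reticulum, fell by 0.92 (adjusted p = 0.0016) and rose by 0.81 (0.0051), and Tmem135, a membrane protein of peroxisomes, fell by 0.75 (0.0028) and rose by 0.73 (0.0052). Mpv17l fell by 0.79 (0.027) and rose by 1.10 (0.0090). The fall of Mpv17l was lost in 5 and that of Vapa (−0.35) in 4 of the 10 fits without 1 library, and with library totals alone the list had 4 higher and 2 lower under restriction (median 0.11) and 3 higher and 3 lower on refeeding (median −0.05). Slc25a17, the peroxisomal carrier of CoA and adenine nucleotides, rose on refeeding (0.51, adjusted p = 0.010), a call lost with totals alone (0.31, adjusted p = 0.075).

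The receptor's own gene was not called. Ppara, chosen after its values were seen, had log2 fold changes of −0.28 in restricted against ad libitum (adjusted p = 0.20), −0.15 in refed against ad libitum (0.79) and 0.13 in refed against restricted livers (0.58). Of 17 genes of PPARA and its cofactors and related receptors, 3 rose and 1 fell under restriction, beside 16.0% of all genes higher and 15.6% lower. The median was 0.24, and 0.56 with library totals alone, where 9 were higher and none lower. Without ad libitum replicate 3, 2 rose. Those that rose were the xenobiotic receptor Nr1i3 (1.09, adjusted p = 0.00030), the bile acid receptor Nr1h4 (0.65, adjusted p = 0.0028) and the coactivator Ep300 (0.53, adjusted p = 0.013). Pparg, the adipogenic relative of PPARA, fell by 0.72 (adjusted p = 0.0099). On refeeding Nr1i3 (−1.31, adjusted p = 0.00015) and Nr1h4 (−0.76, adjusted p = 0.0020) fell and none rose, where 10.7% of all genes were called lower (median −0.18). Scaled by totals, 8 were lower and none higher on refeeding (median −0.39), and 4 were lower without ad libitum replicate 2 or restricted replicate 4.

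Of 21 PPARA targets outside the peroxisome, 6 fell and none rose under restriction, where 15.6% of all genes were called lower (median −0.33, and −0.01 with library totals alone, where 1 was higher and 2 lower). The count of falls was 2 without ad libitum replicate 3, 4 without ad libitum replicate 4 or restricted replicate 1 or 4, and 8 without ad libitum replicate 2 or restricted replicate 2. They included the fatty acid carriers Cd36 (−1.15, adjusted p = 0.00078) and Fabp1 (−0.90, adjusted p = 0.00083), the carnitine carrier Slc25a20 (−0.52, adjusted p = 0.013) and the mitochondrial thioesterase Acot2 (−0.83, adjusted p = 0.020). On refeeding 2 rose and 3 fell (median 0.02), where 11.4% of all genes were called higher and 10.7% lower. Scaled by totals, 1 was higher and 4 lower on refeeding (median −0.18). Without ad libitum replicate 2, 4 rose, and without restricted replicate 1 or refed replicate 1 or 3, 1 did. Fabp1 rose by 0.87 (adjusted p = 0.0018), while the omega-hydroxylases Cyp4a14 (−1.16, adjusted p = 0.0021) and Cyp4a10 (−0.94, adjusted p = 0.0072) and the lipase inhibitor Angptl4 (−0.58, adjusted p = 0.019) fell. The calls of Slc25a20 and Ep300 were lost without ad libitum replicate 3 (adjusted p = 0.097 and 0.078), that of Acot2 without ad libitum replicate 3 or 4, and that of Angptl4 without refed replicate 1 or 2. Scaled by totals, Slc25a20 (−0.20), Acot2 (−0.50) and Pparg (−0.41) were not called. Reads of the Cyp4a genes may be shared with near-identical copies. In refed against ad libitum livers no gene of these 4 lists passed in the main edgeR fit. At an unadjusted p below 0.05 there were 9 of the 42 matrix enzymes, 0 of the 21 membrane and division genes, 1 of the 17 receptors and cofactors and 9 of the 21 targets. Over all genes tested there were 1381 of 12789. DESeq2 called 2 matrix enzymes and 3 targets lower and none of the other genes, where 61 of 17359 genes were called lower. With limma voom 1 of each was called lower, where 30 of 12789 genes were. In edgeR with no filter on low counts 1 target was called lower, where 8 of 17064 genes were. Without ad libitum replicate 2 the count was also 1 target, where 7 of 13014 genes were called lower. The restricted libraries had the lowest summed hepatocyte markers, as given above, beside each of these lists.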

How the data were processed

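Poly(A) RNA of mouse liver was sequenced without strand on the BGI DNBSEQ platform in 10 samples, with RNA integrity numbers of 6.6 to 8.5, per the labels' protocols. HISAT, Bowtie2 and the build GRCm39 are listed, without roles, per the submitters' processing notes. No counting program or annotation is given in the sources used here. Expected counts (10.9% of values not whole) were deposited by the authors and rounded here. FPKM values, which by their definition are scaled to transcript length and sequencing depth, were also deposited. Of 17359 genes, 253 had no count and 12789 passed filterByExpr.

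All 10 libraries entered 1 edgeR 4.0.16 fit (R 4.3.3; TMM, glmQLFit robust, 1 mean per group), and 3 comparisons were tested with the quasi-likelihood F test, Benjamini-Hochberg adjusted over all genes tested, at a threshold of 0.05. The SE is the absolute log2 fold change divided by the root of F. CPM carry TMM factors. Alternatives used DESeq2 1.42.0, limma 3.58.1 (voom with weights, and log2 of FPKM plus 1 or 0.1), other scalings and filters, and left-out libraries. The steps were also run on simulated counts, and the outcome is not reported here. The members and lists were chosen with earlier results of these data known. Members were described by library where called in any comparison, highest in FPKM of their role, or nearest the threshold, and of other lists up to 4 called genes with the smallest p were named per comparison. Some genes that fall under these rules are not reported here. Overlaps and shared 50-base words come from GENCODE M21, upstream windows from RefSeq on GRCm38.p6. Targeting signals of the proteins were not analysed here. Read depth limits the precision of the counts, and overlaps and shared words limit their assignment to genes. The p-values cover the spread between these libraries.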

Additional observations from a re-analysis of the deposited data

Results flagged for a closer look

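In the restricted group, Pex11g stood at 41.5 CPM in replicate 2 and at only 29.1 to 29.96 CPM elsewhere (3 libraries). The gap to the nearest library was 0.928 of the group's whole range, above Dixon's 95% critical value for 4 samples. Restricted replicate 2 was below every ad libitum library for this gene. All 37 genes were examined in this group, and chance alone flags about 1 in 20 groups.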

How the results depend on the processing

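Of 23 called differences of the 37 genes, none changed sign in 21 alternatives, 9 were called in all 21 and 14 lost the call at least once. With no scaling beyond totals, and with log2(FPKM + 1) or log2(FPKM + 0.1) in limma, 5 genes were lower in restricted than ad libitum livers and 5 lower in refed than restricted livers in each. The first leaves out the TMM factors by construction, and for FPKM the cause was not tested. Fits without a library hold fewer samples. Without 1 library each, genes lower in restricted than ad libitum livers numbered 7 to 17 and genes higher 1 to 3. Genes higher in refed than restricted livers numbered 3 to 6 and lower 1 to 3 (1 lower without refed replicate 1 or 2, and 3 higher without refed replicate 3). None was called in refed against ad libitum livers in any of these fits (0 to 0). Over all genes, leaving out ad libitum replicate 3 gave 959 higher and 1151 lower in restricted livers, and leaving out ad libitum replicate 4 gave 1196 higher. Leaving out refed replicate 2 gave 792 higher and 643 lower in refed against restricted livers, replicate 3 gave 874 and 768, and replicate 1 gave 914 lower. Of the 88 differences not called, 28 changed sign and 4 became called with library totals alone, and no value did both in any alternative. For refed against ad libitum livers over all genes, DESeq2 called 39 higher and 61 lower.

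The labels do not say whether replicate numbers pair the samples. Of 8 same-numbered pairs, 2 had deviations correlated above 0.1 (−0.05 to 0.25), and 5 of 10 samples correlated best with their own number. Those 2 pairs, restricted with refed replicate 1 (0.25) and replicate 2 (0.18), were the highest of all pairs between groups. These values cannot show whether the numbers pair samples. With a replicate block the counts were 3 higher and 13 lower for restricted against ad libitum, 7 higher and 3 lower for refed against restricted, and 0 for refed against ad libitum livers. Acaa1b lost its call with the block (adjusted p = 0.069).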
